A study of Solanum tuberosum with 8 samples.

Results

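Potato leaf transcripts for enzymes of the Calvin cycle and of photorespiration were read on the Potato Oligo Chip Initiative (POCI) microarray, through 50 of its 42034 probes. Of these, 38 were taken from the study's list of probes called induced or repressed by drought, as those it placed in the MapMan categories of the Calvin cycle (28 probes) and photorespiration (10 probes), and 12 further probes carry the same contig number as 3 Rubisco small subunit probes of that list. The list was thus made from the comparison of drought with control in either line on these same arrays. For its 38 probes, drought responses and the difference of these responses between the lines are given below as values without a test.

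Leaves came from line Stpfld252, which expresses flavodoxin in its chloroplasts, and from its wild type siblings (WT), both of cultivar Solara. Each was sampled after 3 days of water withdrawal (drought) and with watering continued (control), at an age of 4 weeks per the labels, so the 4 groups were Stpfld252 drought, WT drought, Stpfld252 control and WT control. Each group had 2 one-colour arrays, each hybridized with 1 of 2 pools. According to the methods, leaves of 10 plants per line and treatment were used and the pools came from independent experiments. Flavodoxin was the cyanobacterial protein, fused to a chloroplast transit peptide and driven by the constitutive 35S promoter. All values for it come from 1 transgenic line, and its transcript was not analysed here.

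The Calvin cycle fixes CO2 in the chloroplast stroma. Rubisco joins CO2 to ribulose bisphosphate, phosphoglycerate kinase and the NADPH-using glyceraldehyde-3-phosphate dehydrogenase (GAPDH) reduce the product to triose phosphate with ATP and NADPH from the light reactions, and the remaining enzymes rebuild the CO2 acceptor. When Rubisco takes O2 in place of CO2, its side product is salvaged by photorespiration, a route through peroxisomes and mitochondria that returns carbon to the cycle and releases CO2 and ammonia. Flavodoxin is an electron carrier that cyanobacteria and some algae use in place of ferredoxin and that land plants lack.

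Median spots were 3.64 to 4.45 times as bright as their local background, 77.78% to 80.71% of the probes of an array were flagged as well above background by the scanner software, and 0 spots were saturated. Between 37 and 38 of the 38 listed probes were well above background on each array. Values are normalized signals on the log2 scale, where 1 unit is a 2-fold difference, and levels are compared only within a probe, since each probe binds with its own strength. The SD between the 2 arrays of a group was 0.097 to 0.13 over the listed probes. A probe was called higher or lower when its change was over 2-fold at an adjusted p under 0.05 in limma's moderated test, adjusted over the 36250 probes that passed the filter on dim signals. All 38 listed probes and 10 of the 12 contigs passed. One of the 2 slides carried every drought array and the other every control array, so in comparisons of drought with control the slide and the treatment cannot be told apart. The lines were compared within a slide, where Stpfld252 took the first pair of positions and WT the second. In leaf RNA, fewer cells of a type and less RNA per cell cannot be told apart either.

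Under drought, transcripts for CO2 fixation and reduction were higher in Stpfld252 than in WT leaves. In limma's test 24 of the 38 listed probes were called higher and 0 lower. Changes ran from −0.56 to 3.17 on the log2 scale, with a median of 1.14. At an unadjusted p under 0.05, 33 were higher and 3 lower, against 10405 and 11324 of all 36250 tested probes. Of all tested probes 5.9% were called higher and 4.88% lower in this comparison, and their median change was −0.03. Of the 14 probes not called, 9 had positive changes below 2-fold and 5 negative ones. The count, and the p-values given below for single listed probes under drought, are not independent of how the probes were chosen. The WT drought arrays also entered the comparison that put 33 of the 38 on the list as repressed in WT. Under control conditions, 1 listed probe was called higher and 1 lower in Stpfld252 than in WT, with a median change of 0.12, beside 3.78% and 2% of all tested probes.

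**Figure D1:**
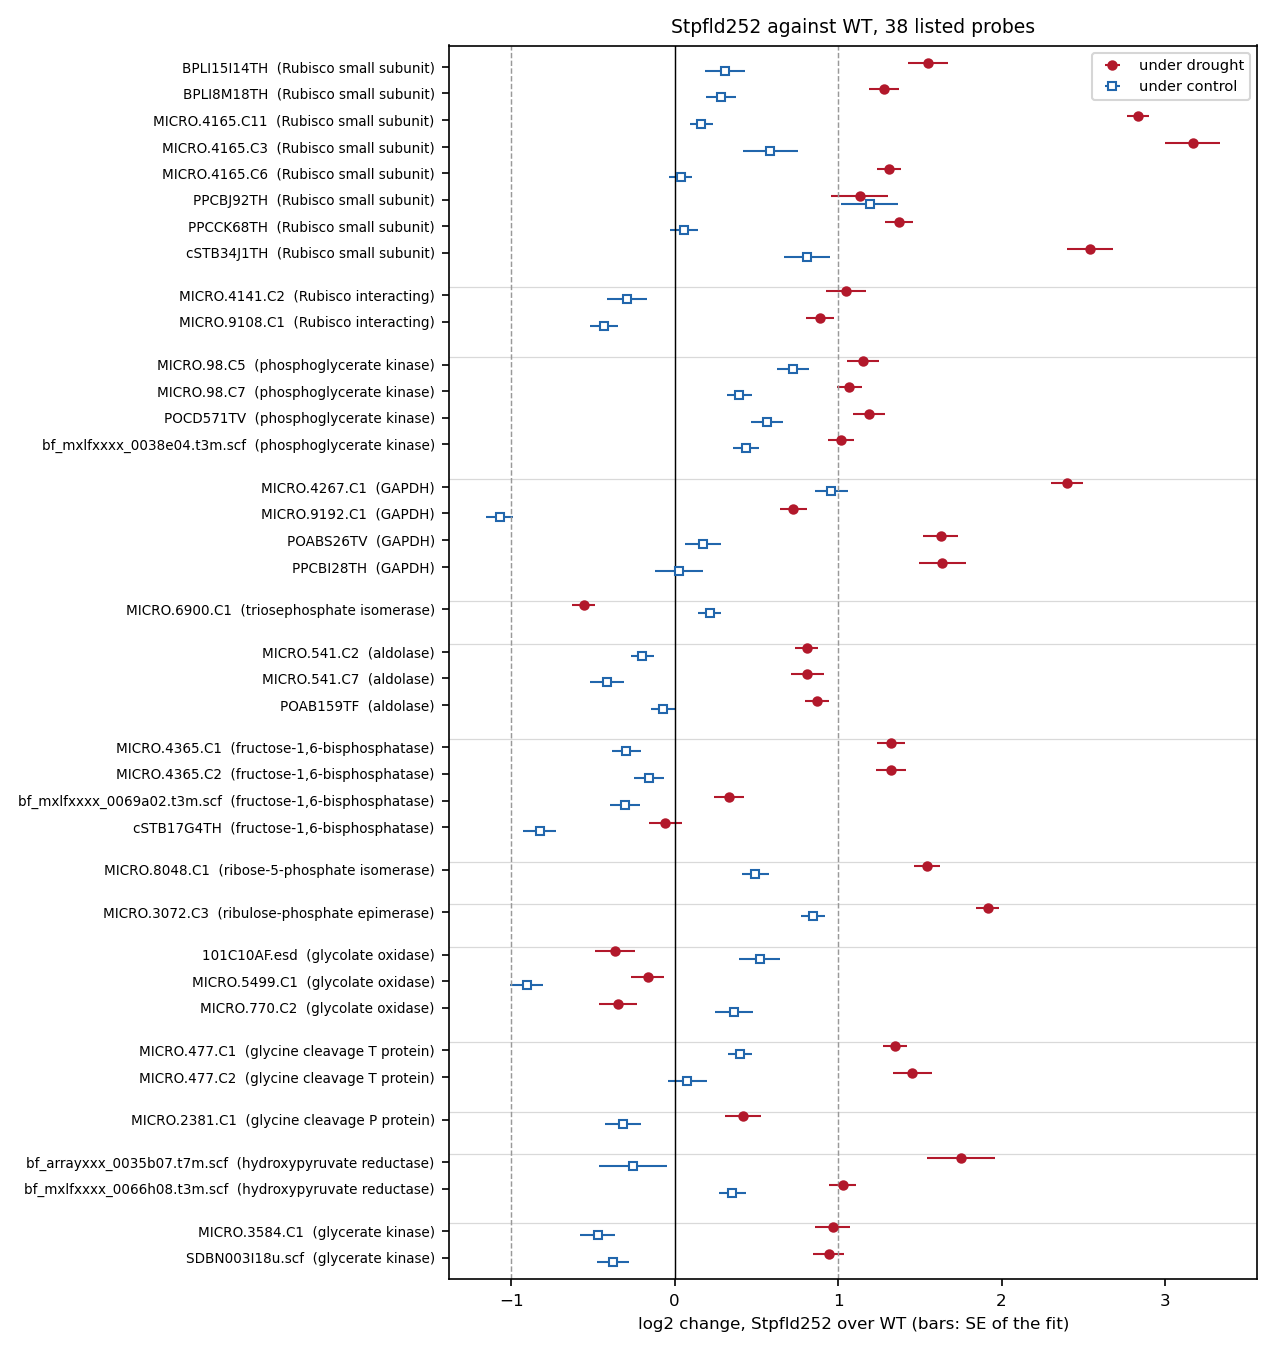
Log2 change of Stpfld252 over WT under drought (filled circles) and under control conditions (open squares) for the 38 listed probes, grouped by enzyme on the vertical axis. Bars are standard errors of the fit, and dashed lines mark a 2-fold difference. The 24 called increases under drought lie right of the upper dashed line, and the 3 glycolate oxidase probes lie left of 0 under drought (MICRO.5499.C1 at 0.04 with median scaling and 0.067 with cyclic loess). The drought value of PPCBJ92TH is a bound.

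All 8 probes for the Rubisco small subunit, which assembles with the chloroplast-encoded large subunit into the enzyme, were called higher in Stpfld252 than in WT under drought, with changes of 1.13 to 3.17. MICRO.4165.C3, described as small chain 1, read 12.92 and 13.50 in Stpfld252 drought leaves, against 10.06 and 10.02 in WT drought leaves. It read 13.33 and 13.34 in Stpfld252 control leaves, against 12.82 and 12.68 in WT control leaves. The 2 WT drought arrays were the low ones, below every other array. The increase in Stpfld252 under drought was 3.17 (SE 0.17, 9.0-fold, adjusted p = 3.05e-06 in limma's test), the largest among the members. Under control conditions the change was 0.58 (SE 0.17, adjusted p = 0.0253), less than 2-fold.

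MICRO.4165.C11, described as small chain 2C, showed the same low WT drought arrays with a closer spread. It read 17.36 and 17.37 in Stpfld252 drought leaves, against 14.54 and 14.52 in WT drought leaves, and 17.55 and 17.59 in Stpfld252 control leaves, against 17.41 and 17.39 in WT control leaves. The increase under drought was 2.83 (SE 0.07, 7.13-fold, adjusted p = 8.78e-08). The control change was 0.16 (adjusted p = 0.0938). The drought response of this probe was −0.20 in Stpfld252 and −2.87 in WT.

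The third largest small subunit increase was at cSTB34J1TH, described as small chain 2A, with 2.54 (SE 0.14, 5.83-fold, adjusted p = 3.72e-06). This probe was low under drought in both lines. It read 8.96 and 9.21 in Stpfld252 drought leaves against 10.75 and 11.13 in Stpfld252 control leaves, and 6.62 and 6.46 in WT drought leaves against 10.10 and 10.17 in WT control leaves. MICRO.4165.C6 and BPLI8M18TH, also described as small chain 2A, were higher in Stpfld252 under drought by 1.31 (adjusted p = 3.62e-06) and 1.28 (adjusted p = 1.56e-05). The 2 remaining small chain 2A probes were called in the same direction, with changes of 1.37 and 1.55. Probes for such closely related copies can bind each other's transcripts, so the 8 values do not give separate expression of each gene.

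PPCBJ92TH, described as small chain 3, was the 1 listed probe called higher in Stpfld252 under both conditions. It read 5.63 and 5.46 in Stpfld252 drought leaves and 4.33 and 4.50 in WT drought leaves (not well above background in WT). It was at least 2.19-fold higher in Stpfld252 under drought (adjusted p = 0.000963). Under control conditions it read 7.54 and 6.97 in Stpfld252 and 6.13 and 5.99 in WT, an increase of 1.19 (SE 0.17, adjusted p = 0.00122) that was below 2-fold without Stpfld252 control replicate 1 (0.91). With a normexp offset of 50 or in the deposited log2 table, the increase under drought was 0.44 and 0.75 and not called. Its drought response was −1.70 in Stpfld252, and in WT the probe was at least 3.12-fold lower under drought, a change that was −0.71 with a normexp offset of 50 and −3.09 with the processed signal.

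Probes of the category of Rubisco-interacting proteins were mixed. MICRO.4141.C2, similar to Arabidopsis Rubisco activase, the ATP-driven protein that frees Rubisco's active site of bound sugar phosphates, was higher in Stpfld252 under drought by 1.05 (SE 0.12, adjusted p = 0.000231). Its signal was 16.41 and 16.59 in Stpfld252 drought leaves against 15.54 and 15.37 in WT drought leaves, and 16.31 and 16.46 in Stpfld252 control leaves against 16.54 and 16.82 in WT control leaves. The call was lost without Stpfld252 drought replicate 2 (0.96), without WT drought replicate 2 (0.96) and with cyclic loess normalization (0.94). MICRO.9108.C1, related to a methyltransferase for the Rubisco large subunit, had a change of 0.89 (adjusted p = 6.86e-05), under 2-fold. It was among the few members with more signal under drought, with 12.15 and 12.03 in Stpfld252 drought leaves against 10.63 and 10.49 in Stpfld252 control leaves, while WT drought leaves read 11.18 and 11.23 against 11.01 and 10.98 in WT control leaves.

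**Figure D2:**
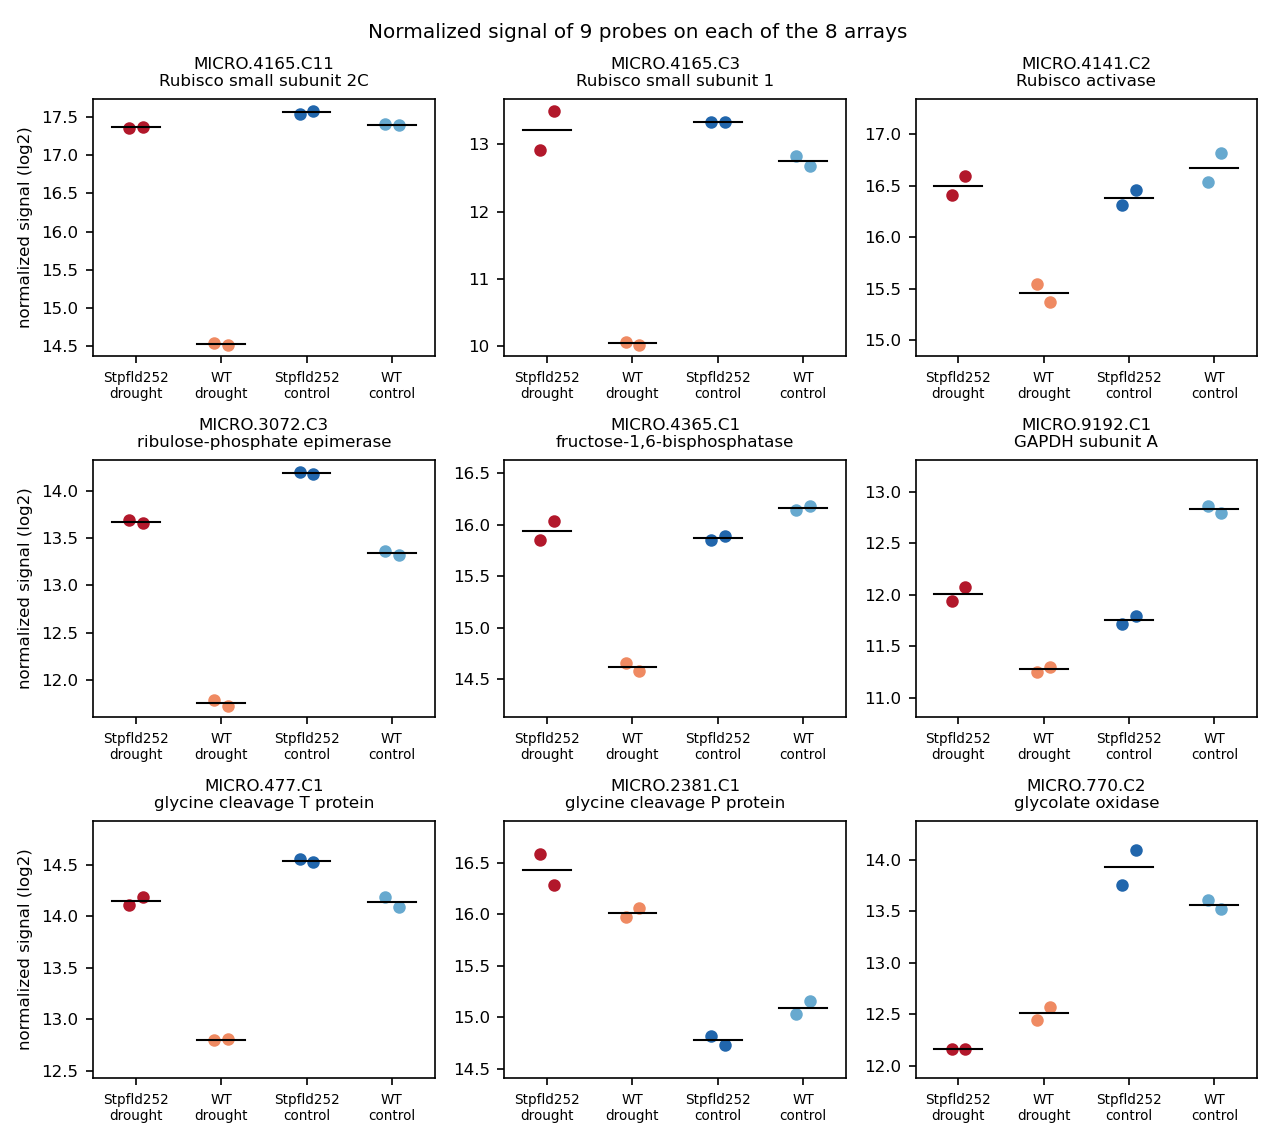
Normalized signal (log2, vertical axis, with a range of its own in each panel) of 9 probes on each of the 8 arrays. Points are arrays and black lines group means. The WT drought arrays lie lowest for Rubisco, activase, epimerase, fructose-1,6-bisphosphatase, GAPDH and T protein, both drought groups lie above the controls for P protein, and both lie below the controls for glycolate oxidase.

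All 4 probes for chloroplast phosphoglycerate kinase, which uses ATP to phosphorylate the first product of fixation, were called higher in Stpfld252 under drought, within a narrow range of 1.02 to 1.19. MICRO.98.C7 read 15.31 and 15.24 in Stpfld252 drought leaves, against 14.16 and 14.25 in WT drought leaves. Its control leaves read 15.84 and 15.79 in Stpfld252, against 15.43 and 15.40 in WT. The change was 1.07 under drought (SE 0.08, adjusted p = 1.42e-05) and 0.39 under control conditions (adjusted p = 0.00446). All 4 changes under control conditions were positive and below 2-fold (0.39 to 0.73). With median scaling, 3 of these 4 probes were no longer called, at 0.945 (bf_mxlfxxxx_0038e04.t3m.scf), 0.996 (MICRO.98.C7) and 1.005 (MICRO.98.C5, adjusted p = 0.0558). With cyclic loess, MICRO.98.C7 (0.977) and bf_mxlfxxxx_0038e04.t3m.scf (0.97) were not called.

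GAPDH uses NADPH for the reduction step, as a chloroplast enzyme of A and B subunits. Of its 4 probes, 3 were called higher in Stpfld252 under drought. MICRO.4267.C1, described as subunit A, had 9.43 and 9.52 in Stpfld252 drought leaves, against 7.03 and 7.12 in WT drought leaves, and 9.94 and 9.95 in Stpfld252 control leaves, against 9.11 and 8.85 in WT control leaves. The increases were 2.40 under drought (SE 0.10, 5.28-fold, adjusted p = 9.25e-07) and 0.96 under control conditions (adjusted p = 0.000239), the second just short of 2-fold. POABS26TV, similar to the Arabidopsis protein At1g12900, and PPCBI28TH, described as subunit B, were higher under drought by 1.63 (adjusted p = 1.04e-05) and 1.64 (adjusted p = 5.01e-05), with control changes of 0.17 and 0.03.

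A further subunit A probe, MICRO.9192.C1, was the 1 listed probe called lower in Stpfld252 under control conditions. It read 11.72 and 11.80 in Stpfld252 control leaves, against 12.87 and 12.79 in WT control leaves, a change of −1.07 (SE 0.08, adjusted p = 4.86e-05). Under drought it read 11.94 and 12.07 in Stpfld252, against 11.26 and 11.30 in WT, a change of 0.73 (adjusted p = 0.000187) under 2-fold. The order of the lines was thus opposite in the 2 treatments. The 2 probes described as subunit A differed in sign under control conditions, and which transcripts each of them binds was not analysed here.

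The probes for sugar rebuilding covered triose phosphate isomerase, aldolase and fructose-1,6-bisphosphatase, which turn triose phosphates into hexose phosphate. Among the 4 fructose-1,6-bisphosphatase probes, MICRO.4365.C1 and MICRO.4365.C2 were higher in Stpfld252 under drought by 1.32 each (adjusted p = 9.19e-06 and 1.36e-05). MICRO.4365.C1 read 15.85 and 16.03 in Stpfld252 drought leaves against 14.66 and 14.57 in WT drought leaves, and 15.85 and 15.89 in Stpfld252 control leaves against 16.15 and 16.18 in WT control leaves. The other 2 were not called. Of these, cSTB17G4TH differed by −0.06 under drought (adjusted p = 0.661) and by −0.83 under control conditions (adjusted p = 0.000537), where it read 12.77 and 12.68 in Stpfld252 and 13.52 and 13.59 in WT.

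None of the 3 plastidic aldolase probes passed 2-fold in limma's test. Their changes under drought were close to each other, 0.81 for MICRO.541.C2 (adjusted p = 4.28e-05), 0.81 for MICRO.541.C7 (adjusted p = 0.00033) and 0.87 for POAB159TF (adjusted p = 3.81e-05), and their control changes were −0.20, −0.41 and −0.07. The triose phosphate isomerase probe MICRO.6900.C1 went the other way. It is described by its match to a Coptis japonica isomerase and read 11.28 and 11.31 in Stpfld252 drought leaves against 10.50 and 10.51 in Stpfld252 control leaves, and 11.84 and 11.86 in WT drought leaves against 10.27 and 10.31 in WT control leaves. The change of Stpfld252 against WT under drought was −0.56 (adjusted p = 0.000342), less than 2-fold. It was the 1 listed probe over 2-fold higher under drought in WT, with a drought response of 0.79 in Stpfld252 and 1.56 in WT.

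Ribose-5-phosphate isomerase and ribulose-phosphate epimerase supply the pentose phosphate from which the CO2 acceptor is made. The epimerase probe MICRO.3072.C3 read 13.69 and 13.65 in Stpfld252 drought leaves, against 11.79 and 11.73 in WT drought leaves. In control leaves it read 14.20 and 14.17 in Stpfld252, against 13.36 and 13.32 in WT. The increases were 1.91 under drought (SE 0.07, 3.77-fold, adjusted p = 5.35e-07) and 0.85 under control conditions (adjusted p = 7.87e-05). The isomerase probe MICRO.8048.C1 was higher by 1.55 under drought (SE 0.08, adjusted p = 2.86e-06), at 13.93 and 14.08 in Stpfld252 against 12.43 and 12.49 in WT, and by 0.49 under control conditions (adjusted p = 0.00215).

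Photorespiratory probes divided by step. Of the 10, 4 were called higher in Stpfld252 than in WT under drought (median change 0.95) and 0 lower. The shares over all tested probes were 5.9% and 4.88%. Under control conditions 0 were called, beside 3.78% higher and 2% lower of all tested probes, with changes from −0.91 to 0.52. At an unadjusted p under 0.05, 4 were higher and 4 lower there, against 8445 and 10110 of all 36250 tested probes. Without a threshold on fold, 7 of the 10 were positive and 3 negative under drought.

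The 3 negative probes were those for glycolate oxidase, the peroxisomal enzyme that oxidizes glycolate and releases hydrogen peroxide. MICRO.770.C2 read 12.16 and 12.16 in Stpfld252 drought leaves against 13.76 and 14.10 in Stpfld252 control leaves, and 12.45 and 12.57 in WT drought leaves against 13.61 and 13.52 in WT control leaves. Both lines were low under drought, and the lines differed by −0.35 there (adjusted p = 0.0363). A further probe had a line difference of −0.36 under drought (adjusted p = 0.0381) and 0.52 under control conditions (adjusted p = 0.0122). MICRO.5499.C1 differed by −0.16 (adjusted p = 0.208) and −0.91 (adjusted p = 0.00035), and its value under drought was 0.04 with median scaling and 0.067 with cyclic loess. For all 3 the drought response was over 2-fold downwards in both lines, from −1.92 to −1.08 in Stpfld252 and from −1.83 to −1.03 in WT. Each was under 2-fold in 1 line with some alternatives, at −0.975 to −0.724 for MICRO.5499.C1 in Stpfld252, −0.993 to −0.905 for MICRO.770.C2 in WT and −0.968 to −0.775 for the further probe in WT.

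The glycine cleavage system breaks glycine down in mitochondria, with P protein as the decarboxylase and T protein as the aminomethyltransferase. Both T protein probes were higher in Stpfld252 under drought. MICRO.477.C1 read 14.11 and 14.19 in Stpfld252 drought leaves against 12.80 and 12.80 in WT drought leaves, and 14.55 and 14.53 in Stpfld252 control leaves against 14.18 and 14.09 in WT control leaves. The increase was 1.35 (SE 0.08, adjusted p = 4.08e-06), and that of MICRO.477.C2 was 1.45 (SE 0.12, adjusted p = 3.12e-05). The P protein probe MICRO.2381.C1 had more signal under drought than under control conditions in both lines. It read 16.58 and 16.28 in Stpfld252 drought leaves against 14.82 and 14.73 in Stpfld252 control leaves, and 15.97 and 16.06 in WT drought leaves against 15.03 and 15.15 in WT control leaves. The lines differed by 0.42 under drought (adjusted p = 0.0135), below 2-fold.

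Both probes placed under hydroxypyruvate reductase, the peroxisomal enzyme that forms glycerate, were called higher in Stpfld252 under drought, but neither description names that enzyme. The probe bf_mxlfxxxx_0066h08.t3m.scf is described as a hydroxyphenylpyruvate reductase. It read 10.76 and 10.85 in Stpfld252 drought leaves against 9.76 and 9.79 in WT drought leaves, an increase of 1.03 (SE 0.08, adjusted p = 2.57e-05) close to the threshold. The probe bf_arrayxxx_0035b07.t7m.scf is described as leucoanthocyanidin dioxygenase, an enzyme of flavonoid synthesis. It read 6.66 and 6.40 in Stpfld252 drought leaves against 4.77 and 4.79 in WT drought leaves, an increase of 1.75 (SE 0.21, adjusted p = 0.000238), and in control leaves of each line it was well above background on 1 of 2 arrays. With a normexp offset of 50 both calls were lost, at 0.99 and 0.88.

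Glycerate kinase returns glycerate to the Calvin cycle. Its 2 probes, one of which is described as related to phosphoribulokinase and uridine kinase, lay just under the threshold, with 0.97 for MICRO.3584.C1 (adjusted p = 0.00017) and 0.94 for SDBN003I18u.scf (adjusted p = 0.000109). MICRO.3584.C1 read 12.26 and 12.47 in Stpfld252 drought leaves against 11.46 and 11.33 in WT drought leaves, and 12.52 and 12.69 in Stpfld252 control leaves against 13.01 and 13.14 in WT control leaves. Leaving out either Stpfld252 drought replicate 1 or WT drought replicate 1 put MICRO.3584.C1 over the threshold (1.075 and 1.029), as did the processed signal (1.033), and SDBN003I18u.scf passed it without WT drought replicate 1 (1.028). The called listed probes nearest to them were bf_mxlfxxxx_0038e04.t3m.scf at 1.02 and bf_mxlfxxxx_0066h08.t3m.scf at 1.03. On the 2 sides of the threshold, MICRO.3584.C1 and bf_mxlfxxxx_0038e04.t3m.scf differed by less than the SE of either change (0.11 and 0.08).

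The drought responses that put the 38 probes on the list differed in size between the lines. In Stpfld252, 4 were over the thresholds upwards and 5 downwards, with a median log2 change of −0.26. In WT, 1 was over the thresholds upwards and 33 downwards, with a median of −1.42. Over all tested probes, 5.61% were called higher and 7.76% lower by drought in Stpfld252, with a median change of 0.05, and 8.2% and 10% in WT, with a median of 0.04. The members downwards in both lines were the 3 glycolate oxidase probes and 2 small subunit probes, cSTB34J1TH and PPCBJ92TH. The 4 upwards in Stpfld252 were MICRO.2381.C1 (1.66), MICRO.9108.C1 (1.53), bf_arrayxxx_0035b07.t7m.scf (2.09) and bf_mxlfxxxx_0066h08.t3m.scf (1.31), which in WT had 0.92, 0.21, 0.08 and 0.64. The 4 chloroplast phosphoglycerate kinase probes had responses of −0.73 to −0.51 in Stpfld252 and −1.36 to −1.07 in WT.

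By enzyme, the median response in Stpfld252 and in WT was −0.15 and −1.70 for GAPDH, −0.16 and −1.33 for fructose-1,6-bisphosphatase, −0.29 and −1.47 for aldolase, and −0.22 and −1.89 for the Rubisco small subunit. Across all 38 listed probes the response in Stpfld252 minus that in WT had a median of 1.15 and ran from −0.89 to 2.67, with 34 positive and 4 negative values. Such differences were called upwards for 5.82% and downwards for 5.97% of all tested probes. The negative ones were MICRO.6900.C1 (−0.77), 2 glycolate oxidase probes, MICRO.770.C2 (−0.71) and a further one (−0.89), and PPCBJ92TH (−0.06), whose sign is not determined because its response in WT is a bound. Members just inside the drought rule were cSTB17G4TH, at −0.28 in Stpfld252 and −1.04 in WT, and MICRO.98.C5, at −0.64 and −1.07. Just outside it, among the contigs taken by number, MICRO.4165.C8 had 0.32 in Stpfld252 and 0.86 in WT, and MICRO.4165.C2 had 0.83 and −0.35.

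**Figure D3:**
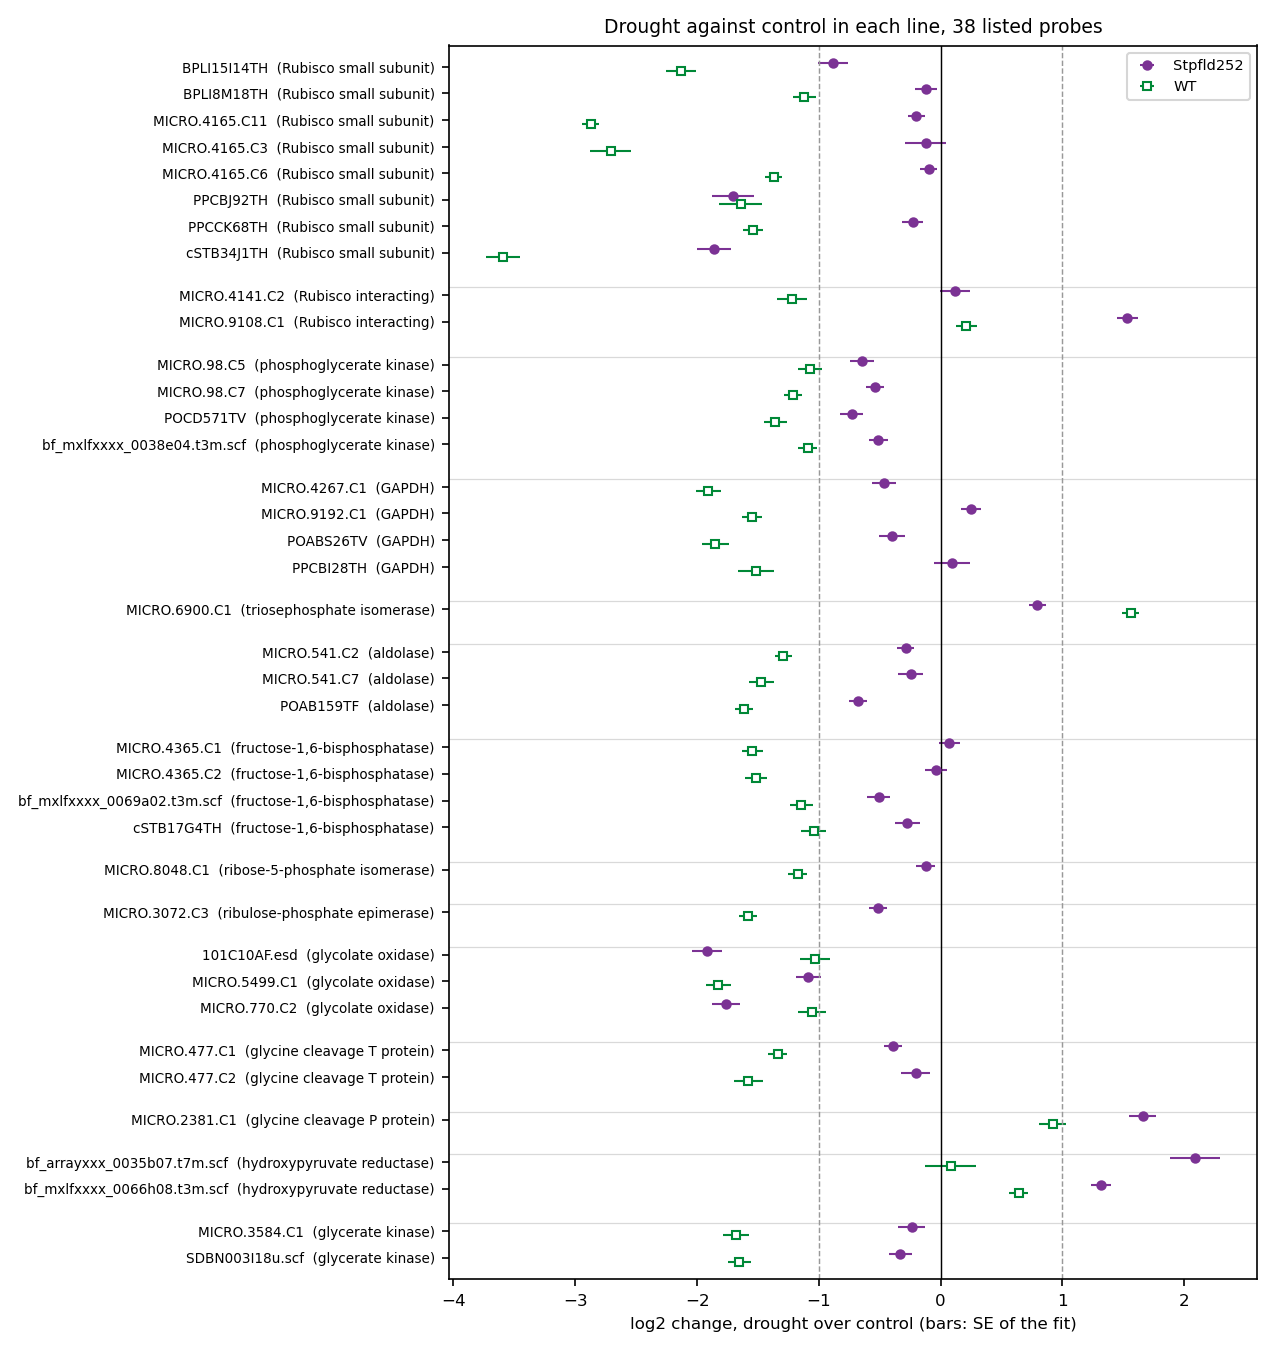
Log2 change of drought over control in Stpfld252 (filled circles) and in WT (open squares) for the 38 listed probes, grouped by enzyme. Bars are standard errors of the fit, and dashed lines mark a 2-fold difference. Treatment and slide coincide here, and the WT value of PPCBJ92TH is a bound. The 33 WT values left of the lower dashed line and the 5 such values in Stpfld252 are the ones described as downwards.

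The 12 contigs numbered MICRO.4165 outside the list were chosen by name, as those that the drought list does not hold. A contig number can join unlike sequences, and the study's tables analysed here describe only MICRO.4165.C16 among the 12, as a hypothetical protein placed under basic helix-loop-helix factors. MICRO.4165.C9 and MICRO.4165.C12 were not well above background on any array and were not tested. None of the 10 tested was called by drought in limma's test, with responses of −0.71 to 0.83 in Stpfld252 and −0.45 to 0.86 in WT. At an unadjusted p under 0.05, 5 were higher and 1 lower in Stpfld252, and 3 and 3 in WT. Of all 36250 tested probes, 12575 and 10416 passed that p in Stpfld252, and 12715 and 11122 in WT. At an adjusted p under 0.05 with no fold threshold, MICRO.4165.C8, MICRO.4165.C14 and MICRO.4165.C20 were higher under drought in both lines, by 0.32, 0.41 and 0.37 in Stpfld252 and by 0.86, 0.54 and 0.56 in WT. The listed MICRO.4165.C3, MICRO.4165.C6 and MICRO.4165.C11 had −0.12, −0.10 and −0.20 in Stpfld252 and −2.71, −1.37 and −2.87 in WT. The list was made from drought calls on these arrays. The lack of such calls outside it, and this contrast, follow in part from the rule.

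Between the lines under drought, 1 of these 10 contigs was called higher and 0 lower, beside 5.9% and 4.88% of all tested probes. Under control conditions 0 were called higher and 1 lower, beside 3.78% and 2%. The increase under drought was at MICRO.4165.C2. MICRO.4165.C2 read 11.22 and 11.54 in Stpfld252 drought leaves against 10.41 and 10.34 in WT drought leaves, and 10.54 and 10.57 in Stpfld252 control leaves against 10.64 and 10.81 in WT control leaves. Its increase was 1.003 (SE 0.12, adjusted p = 0.000203), right at the threshold, and was below it in 5 alternatives (0.835 to 0.995), among them without Stpfld252 drought replicate 2 (0.845) and without WT drought replicate 2 (0.97). Its drought response was 1.18 larger in Stpfld252 than in WT (SE 0.16, adjusted p = 0.000929 in limma's test). Under control conditions MICRO.4165.C16 was lower in Stpfld252, at 9.86 and 9.69 against 10.76 and 10.84 in WT, a change of −1.02 (SE 0.09, adjusted p = 7.6e-05). Without Stpfld252 control replicate 2 (−0.94) or WT control replicate 2 (−0.99) it was no longer past 2-fold. The same held with a normexp offset of 50 (−0.984) and with cyclic loess (−0.962). MICRO.4165.C5, not well above background on either WT drought array, was at least 1.52-fold higher in Stpfld252 under drought (adjusted p = 0.00312). This change was 0.206 with a normexp offset of 50, and it was called with the processed signal (1.202) and median scaling (1.437). The remaining 7 were called in neither comparison of the lines. Among them, MICRO.4165.C18 had 0.89 under control conditions (adjusted p = 0.000287). It was called there with cyclic loess (1.113) and the processed signal (1.303).

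**Figure D4:**
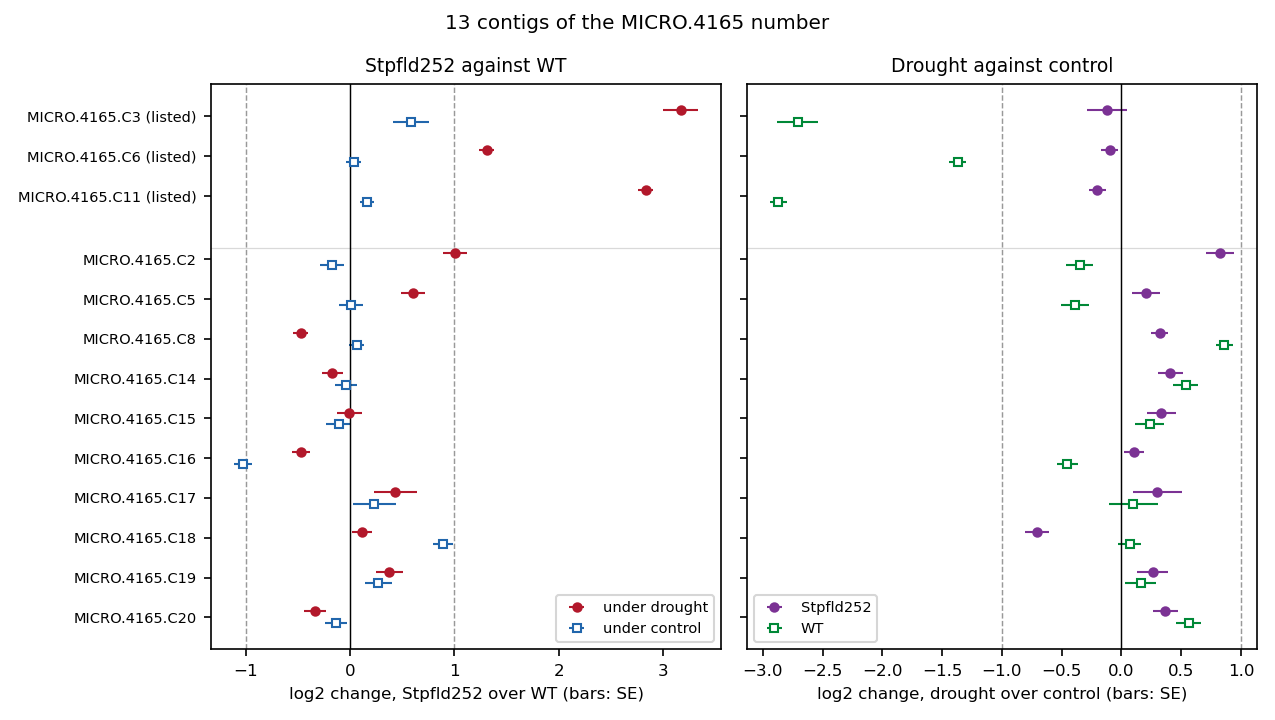
Log2 changes of the 13 tested probes with the contig number MICRO.4165, Stpfld252 over WT on the left (under drought, filled circles, and under control conditions, open squares) and drought over control on the right (Stpfld252, filled circles, and WT, open squares), with standard errors. The 3 listed Rubisco probes lie at −2.87 to −1.37 in WT on the right, apart from the 10 others at −0.45 to 0.86, and values of MICRO.4165.C5 that use WT drought leaves are bounds. The gap follows in part from the rule, since the list was made from drought calls on these arrays.

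The listed members with a contig number of their own had further relatives on the array. Outside MICRO.4165, these numbers held 19 unlisted probes that passed the filter and 2 that did not, beside 19 listed probes. Under drought, 0 of the 19 were called higher in Stpfld252 than in WT and 1 lower (10 and 7 at an unadjusted p under 0.05). Under control conditions 0 were called (6 and 6 at an unadjusted p under 0.05). Of all 36250 tested probes, 10405 and 11324 passed that p under drought, and 8445 and 10110 under control conditions. Called higher and lower were 5.9% and 4.88% of them under drought, and 3.78% and 2% under control conditions. The 1 called lower under drought was MICRO.98.C2, which shares its number with the phosphoglycerate kinase probes, with −1.01 (adjusted p = 4e-05). By drought, the unlisted probes of this number went both ways. MICRO.98.C11 and MICRO.98.C8 were over 2-fold higher in both lines, with 1.65 and 2.19 in Stpfld252 and 2.32 and 2.38 in WT. MICRO.98.C3 and MICRO.98.C9 were over 2-fold lower in both lines, with −1.06 and −1.20 in Stpfld252 and −1.31 and −1.26 in WT. The listed MICRO.98.C5 and MICRO.98.C7 had negative responses. The list was made from drought calls, so the counts of probes left off it follow in part from the rule.

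Other enzymes of the pathway could be read from the study's remaining tables. The study had called 4 further Calvin cycle probes between the lines under control conditions, where 3 were higher and 1 lower in Stpfld252. Under drought, 1 of these 4 was called higher, beside 5.9% of all tested probes. This was MICRO.1136.C1, the chloroplast transketolase, which passes carbon units between sugar phosphates, at 8.99 and 8.90 in Stpfld252 drought leaves against 7.08 and 7.31 in WT drought leaves (1.75, SE 0.14, adjusted p = 2.55e-05). In control leaves it read 8.87 and 8.95 in Stpfld252 against 7.85 and 7.46 in WT. That change, 1.25, was not tested because the probe was chosen by it. Its drought response was 0.03 in Stpfld252 and −0.46 in WT. The fructose-1,6-bisphosphatase precursor probe cPRO27N4TH had −0.62 under drought (adjusted p = 0.000231) and −1.14 under control conditions.

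Catalase removes the hydrogen peroxide that glycolate oxidase makes. The 3 probes found for it in the study's tables were called higher in Stpfld252 under drought. The changes were 1.03 for bf_arrayxxx_0050d08.t3m.scf (adjusted p = 6.53e-05), 1.15 for cSTA37H24TH (adjusted p = 6.28e-05) and 1.00 for MICRO.491.C6 (adjusted p = 0.000121). Under control conditions the same probes had −0.55 (adjusted p = 0.003), −0.45 (adjusted p = 0.0117) and −0.38 (adjusted p = 0.0217). Their drought responses were −0.39, −0.47 and −0.04 in Stpfld252 and −1.96, −2.07 and −1.43 in WT. MICRO.491.C6 read 16.92 and 16.81 in Stpfld252 drought leaves against 15.93 and 15.80 in WT drought leaves. The 2 probes placed under alanine-glyoxylate aminotransferase were called lower. MICRO.8323.C1, described as a putative aminotransferase, read 9.82 and 9.63 in Stpfld252 drought leaves against 13.78 and 13.73 in WT drought leaves, and 7.19 and 7.21 in Stpfld252 control leaves against 8.61 and 8.41 in WT control leaves. The changes were −4.03 under drought (SE 0.10, adjusted p = 8.66e-08) and −1.31 under control conditions (adjusted p = 4.47e-05). ACDA01331G11.T3m.scf, without a sequence match, changed by −3.04 under drought (adjusted p = 2.56e-07) and had −0.04 under control conditions. MICRO.2356.C1, placed under glycine degradation and related to threonine aldolase, differed between the lines by −0.25 under drought (adjusted p = 0.0873), and its drought response was 1.25 in Stpfld252 and 1.05 in WT. These 6 probes, too, came from tables of called probes.

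The same drought list holds 107 probes for the light reactions, which supply the cycle with ATP and NADPH. Under drought, 20 of the 28 Calvin cycle probes (71.4%, median change 1.23) and 60 of the 107 light reaction probes (56.1%, median 1.098) were called higher in Stpfld252 than in WT. Under control conditions, 1 of the 28 was called higher and 1 lower (median 0.17), against 12 and 1 of the 107 (median 0.19). The shares over all tested probes were 5.9% higher and 4.88% lower under drought, and 3.78% and 2% under control conditions. The drought response had a median of −0.26 in Stpfld252 and −1.49 in WT for the Calvin cycle probes, and of −0.49 in Stpfld252 and −1.37 in WT for the light reaction probes. Since both sets were chosen by drought calls on these arrays and share all arrays, the difference between them was not tested.

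Markers of leaf and tuber tissue were read on each array. The 37 probes for light-harvesting proteins of photosystem II had medians of 11.23 and 11.30 in Stpfld252 drought leaves, 9.80 and 9.72 in WT drought leaves, 12.11 and 12.01 in Stpfld252 control leaves, and 11.86 and 11.74 in WT control leaves. At least 34 of the 37 were well above background on every array. The 10 probes described as patatin, the storage protein of tubers, had medians of 7.05 and 7.14 in Stpfld252 drought leaves, 4.43 and 4.66 in WT drought leaves, 7.67 and 7.69 in Stpfld252 control leaves, and 6.04 and 5.78 in WT control leaves. Of these 10, all were well above background on every Stpfld252 array, 5 and 4 on the WT drought arrays, and 9 and 10 on the WT control arrays. The patatin probes were called higher in Stpfld252 at 6 of 10 under drought and at 8 of 10 under control conditions. Of all tested probes, 5.9% and 3.78% were called higher. The 10 patatin probes came from the study's tables of called probes and the 37 from its drought list, all made on these arrays. Their counts and levels thus follow in part from that choice. The part of the patatin probes in the differences between the lines was not tested.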

How the data were processed

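The authors deposited, for each of the 8 one-colour Agilent arrays, the Feature Extraction output. As deposited by the authors, it holds the median intensity per spot with that of the surrounding background, the software's background-subtracted processed signal (also an intensity) and its quality flags, which were all read. These intensities had not been normalized between arrays. The authors also deposited 1 table of log2 values, made per their methods with limma by normexp correction, quantile normalization and removal of dim probes. Spots carry identifiers only, so categories and descriptions came from the study's supplementary tables, whose columns of fold changes and p-values hold the authors' own comparisons and were not used.

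In R 4.3.3 with limma 3.58.1, normexp (offset 0) was applied to the median intensities of all spots, followed by quantile normalization and log2. Control spots were removed. To be tested, a probe had to be brighter, on both arrays of 1 or more groups, than 1.1 times a background level, the 95th percentile of 153 negative controls. One linear model with 4 group means was fitted to all 8 arrays, followed by eBayes. Adjusted p-values are Benjamini-Hochberg rates over all 36250 tested probes, and a call needed a rate under 0.05 and a change over 2-fold. Some spots, 8 to 16 of the members per array, had been scaled by the scanner from its low gain scan. Precision is limited by 2 arrays per group, which share 1 estimate of spread. A probe that no array of a group showed well above background is given as a bound, "at least N-fold". In a bound, a signal under the lowest probe signal flagged well above background on its array would be raised to that level. The bounds given here needed no such raise and equal the fitted changes. The steps were tested on simulated data, and figures were drawn with matplotlib 3.10.9.

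The members, gene lists and tests were chosen with earlier results of these data known. The probes named are the 3 with the highest mean signal per enzyme, all called between the lines under control conditions, all MICRO.4165 contigs, the 5 largest increases and 3 largest decreases called between the lines under drought, and those drought induced in either line. Contig relatives and other pathway probes were named after their values were seen. Alternatives were a normexp offset of 50, the processed signal (scaled by its 75th percentile), median scaling, cyclic loess, the deposited table, other filters, other fits, a block for the replicate number, and omission of single arrays.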

Additional observations from a re-analysis of the deposited data

Results flagged for a closer look

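Probes at which the arrays of 1 line all moved one way with drought and those of the other line all moved the opposite way were looked for. MICRO.9192.C1, a GAPDH subunit A probe, had a drought response of 0.25 in Stpfld252 and −1.55 in WT, a difference of 1.80 that was not tested because the list was made from these responses. PPCBI28TH, the subunit B probe, had 0.09 in Stpfld252 and −1.52 in WT, a difference of 1.61 that was likewise not tested. Among the contigs taken by number, MICRO.4165.C2 had 0.83 in Stpfld252 and −0.35 in WT, and the difference of 1.18 passed the threshold in limma's test (adjusted p = 0.000929). MICRO.4165.C18 had a difference of −0.78 (adjusted p = 0.00304), under 2-fold, with responses of −0.71 in Stpfld252 and 0.07 in WT. With the processed signal these were −1.11 and −0.08, so the lines did not move in opposite directions there. MICRO.4165.C5 had a fitted difference of 0.59, but it was not well above background in WT drought leaves, so the difference is not determined. With the processed signal its response was −0.20 in Stpfld252 and −0.84 in WT, both downwards.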

How the results depend on the processing

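With 19 alternatives, the number of listed probes called higher in Stpfld252 than in WT under drought stayed between 20 and 25 and the number called lower at 0. Those over the thresholds downwards by drought were 4 to 6 in Stpfld252 and 28 to 33 in WT. Under control conditions the 1 called increase, PPCBJ92TH, was lost with a normexp offset of 50 (0 called) and when all 8 arrays had to pass the filter (0 of 37 tested), and 2 were called higher and 2 lower with the processed signal. With 1 array left out at a time, 22 to 25 listed probes were called higher under drought, with a median change of 1.084 to 1.213. Under control conditions 0 to 2 were called higher and 1 lower, with a median of 0.068 to 0.146. Here 0 were called without Stpfld252 control replicate 1 and 2 without WT control replicate 1, where MICRO.4267.C1 joined (1.09). Downwards by drought were 5 to 6 in Stpfld252 (median −0.363 to −0.243) and 30 to 33 in WT (median −1.449 to −1.401).

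Median scaling gave a median change of Stpfld252 against WT of 1.022 under drought and −0.10 under control conditions, the opposite sign to the 0.12 reported, so the listed probes had no stable direction there. It also moved the median drought response in Stpfld252 to −0.083, and that of all tested probes from 0.049 to 0.228. The processed signal gave −0.084 in Stpfld252 and −1.316 in WT. The cause of these shifts was not tested. Of the values for single named probes under the alternatives, 3272 stayed on their side of the threshold, 12 passed it and 48 fell below it. The sign changed in 48 values, of which 0 had been called, at changes of 0.334 or less. Under drought, bf_mxlfxxxx_0038e04.t3m.scf fell below it without Stpfld252 drought replicate 1 (0.95) or WT drought replicate 1 (1.00), and bf_mxlfxxxx_0066h08.t3m.scf without Stpfld252 drought replicate 2 (0.98).

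The labels do not say that a replicate number marks an experiment, and same-numbered arrays correlated by −0.148 to 0.161. With the replicate number as a block, 24 listed probes were called higher under drought and 1 under control conditions, and no count or median moved. With the WT drought numbers crossed, an alternative added after seeing the data, 24 and 1 were called. Signals near background limit PPCBJ92TH, bf_arrayxxx_0035b07.t7m.scf and MICRO.4165.C5.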
